A study of Mus musculus with 18 samples.

Results

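The leukocyte integrins described here are 9 subunit genes, Itgax, Itgam, Itgal, Itgae, Itga4, Itga6, Itgb1, Itgb2 and Itgb7, chosen by gene symbol from 3 tables of gene expression. Each symbol had 1 row in each table. The tables of multipotent progenitors (MPPs) and of CD115- common DC progenitors (CDPs) listed 19710 genes each, that of common lymphoid progenitors (CLPs) listed 18378, and 19919 genes were listed in at least 1 of the 3. The study asked what loss of TRIM33, a nuclear protein that regulates transcription, does to bone marrow progenitors on the way to dendritic cells (DCs). Messenger RNA of sorted cells was sequenced in 18 libraries, 3 biological repeats of each genotype in each population.

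The mice were C57BL/6 animals aged 6 to 8 weeks. Those called WT carried Trim33fl/fl, and those called KO carried Trim33fl/fl together with Cre-ERT2, a tamoxifen-inducible Cre that acts in all tissues, so both genotypes had the floxed allele. Animals of both genotypes were treated with tamoxifen, by injection of 2 mg on each of 5 consecutive days, and the analysis followed 7 days later. Because the WT mice had no Cre-ERT2, an effect of active Cre and one of the deletion cannot be told apart. Deletion was therefore not restricted to progenitors, and any cell type of the host could have lost TRIM33. MPPs were sorted as Lin- Sca-1+ CD117+ CD34+ FLT3+ cells. CD115- CDPs were Lin- CD11c- FLT3+ CD117int CD115- CD127- cells, and CLPs were Lin- CD11c- Sca-1+ CD117+ CD127+ FLT3+ cells. Surface CD11c, the product of Itgax, was thus excluded from the CD115- CDP and CLP gates, and the lineage antibodies included CD11b, the product of Itgam. The gates acted on protein at the cell surface, and the libraries measured the mRNA of the cells that passed.

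Integrins are pairs of an alpha and a beta chain that span the plasma membrane and bind matrix proteins or adhesion molecules of other cells. A chain reaches the surface only with a partner, so the set of beta chains a cell makes limits the receptors it can display. CD18, made from Itgb2, pairs with CD11a (Itgal) to form LFA-1, with CD11b (Itgam) to form the complement receptor Mac-1, and with CD11c (Itgax) to form a receptor that is widely used to identify DCs. The product of Itgb7 pairs with that of Itga4 in the receptor for the gut addressin MAdCAM-1 and with CD103 (Itgae) in the receptor for E-cadherin. CD29, made from Itgb1, is the broadest partner, and with the products of Itga4 or Itga6 it anchors progenitors to VCAM-1, fibronectin and laminin in the marrow.

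The genes lie on 6 chromosomes of GRCm38, the assembly also known as mm10, by RefSeq annotation. Itgal (127296139 to 127335137), Itgam (128062640 to 128118491) and Itgax (128129526 to 128150657) are on chromosome 7, where 11034 bases separate Itgam from Itgax. A further alpha subunit gene that is not a member, Itgad, follows Itgax after 23275 bases. Itga6 (71786886 to 71858427) and Itga4 (79255426 to 79333114) are on chromosome 2. Itgae is on chromosome 11 (73090505 to 73147449), Itgb1 on chromosome 8 (128685654 to 128733579), Itgb2 on chromosome 10 (77530329 to 77565708) and Itgb7 on chromosome 15 (102215994 to 102233405).

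The promoters of Itgax and Itgb7 are shown because these are the members with the largest differences between genotypes in CD115- CDPs and CLPs. Each covers 250 bases before and 50 bases after an annotated transcript start, on the strand of the gene, as given for RefSeq genes on GRCm38.p6. The Itgax window is chr7:128129300-128129599 on the plus strand and the Itgb7 window is chr15:102231886-102232185 on the minus strand. The annotated Itgb7 gene reaches 102233405, upstream of its window, so the outermost annotated start of Itgb7 is not shown. Capitals mark GAGGAAGT, a purine-rich sequence bound by the myeloid ETS factor PU.1, and GGAAGTG, a shorter ETS-type sequence, on either strand; the 2 motifs can overlap in GGAAGT, and both were chosen after the sequences were seen.

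Itgax: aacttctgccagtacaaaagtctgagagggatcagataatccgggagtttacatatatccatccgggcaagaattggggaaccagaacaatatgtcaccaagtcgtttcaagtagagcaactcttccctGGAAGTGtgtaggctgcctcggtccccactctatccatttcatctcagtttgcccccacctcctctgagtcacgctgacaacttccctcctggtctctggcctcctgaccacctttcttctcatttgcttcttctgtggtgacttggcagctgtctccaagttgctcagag

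Itgb7: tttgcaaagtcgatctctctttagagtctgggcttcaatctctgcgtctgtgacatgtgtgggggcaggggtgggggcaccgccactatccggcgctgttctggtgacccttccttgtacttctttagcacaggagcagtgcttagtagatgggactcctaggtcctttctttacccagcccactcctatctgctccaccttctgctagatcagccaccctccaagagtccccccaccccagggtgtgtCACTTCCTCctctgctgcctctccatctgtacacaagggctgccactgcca

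In the Itgax promoter GGAAGTG lies on the shown strand between 121 and 115 bases before the start. In the Itgb7 promoter both motifs overlap on the opposite strand, from 1 base before to 7 bases after the start. Promoters of 5 of the 9 members (Itgax, Itgam, Itga4, Itgb1 and Itgb7) were in the reference table. GAGGAAGT was in 1 of these 5 and in 3.20% of all 32851 promoters of that length (1052). GGAAGTG was in 2 of the 5 and in 11.004% of all (3615). These matches are letters in a window, and no binding was measured in these files.

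The libraries were of similar depth, estimated at 19.2 to 21.3 M mapped reads. Trim33 itself, measured over the whole gene and so also outside the deleted exons, overlapped between genotypes in each population. In MPPs it was 10.4, 10.1 and 8.78 FPKM (fragments scaled to the length of the transcript and to the mapped reads of the library) in WT and 9.71, 11.7 and 4.80 in the KO libraries, with a log2 fold change of -0.22 ± 0.29 (SE; adjusted p = 0.630). The WT libraries of CD115- CDPs had 14.3, 15.2 and 8.27 FPKM of Trim33 and the KO libraries 9.64, 8.28 and 4.03 (-0.74 ± 0.36, adjusted p = 0.528), a difference that passed once the replicate number was a block (adjusted p = 0.0258). In CLPs it was 12.4, 7.01 and 8.86 against 7.52, 5.60 and 7.66 (-0.37 ± 0.20, adjusted p = 0.255, and 0.0727 with the block). In these last 2 populations each KO library was below the WT library of its number, and in MPPs 2 of 3 were. The study checked the deletion separately, by qPCR of Lin- marrow cells. It also blotted TRIM33 protein in Lin- and Lin- FLT3+ marrow cells of both genotypes. Because FPKM of the whole gene does not read the deleted exons and overlapped between genotypes, the libraries are called KO-labelled below. The CD115- CDP libraries numbered 3 stood apart in both genotypes. Their summed FPKM of 10 neutrophil genes was 4234 in WT and 3980 in the KO-labelled library, against 639 to 1004 in the other 4 libraries, and their 8 monocyte and macrophage genes summed to 658 and 165, against 35.7 to 154. Several, but not all, results without the block that rest on these libraries are given with and without them. The fits with the block were not repeated without them.

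All tests of many genes used limma on log2(FPKM + 1), on the genes whose average reached 0.5 FPKM, with Benjamini-Hochberg adjustment over all genes tested. Log2 fold changes are given ± SE. A gene passed at an adjusted p of at most 0.05, and it was called if its log2 fold change was also at least 1 in size. In this text p-values set a difference against the spread between biological repeats. Because these are bulk libraries, fewer cells of a type and less RNA per cell cannot be told apart.

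In WT progenitors Itgax and Itgb7 were higher in CD115- CDPs and CLPs than in MPPs, and Itga6 was lower. Itgax, the CD11c gene, was 3.74, 3.46 and 3.48 FPKM in MPPs, 23.3, 15.7 and 20.9 in CD115- CDPs and 61.0, 69.7 and 54.8 in CLPs. None of these ranges overlapped, although cells with surface CD11c had been removed from the last 2 populations. Itgax was higher in WT CD115- CDPs than in WT MPPs by 2.18 ± 0.17 on the log2 scale (SE; adjusted p = 7.2e-07), and higher again in CLPs than in CD115- CDPs by 1.59 ± 0.17 (adjusted p = 4.52e-05). CLPs exceeded MPPs by 3.78 ± 0.17 (adjusted p = 1.61e-09), a 17.4-fold ratio of mean FPKM. The 3 populations come from separate tables, each library scaled to its own total, so the population and whatever differed between the tables cannot be told apart, and the 3 contrasts share their WT libraries.

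Itgb7 was the most abundant member in WT CD115- CDPs and CLPs. It was 37.8, 38.9 and 40.0 FPKM in MPPs, 109, 73.9 and 219 in CD115- CDPs and 91.6, 108 and 74.1 in CLPs. Both later populations lay above MPPs without overlap, by 1.61 ± 0.27 (adjusted p = 0.000475) and 1.19 ± 0.27 (adjusted p = 0.00388) on the log2 scale, while CLPs and CD115- CDPs overlapped (-0.42 ± 0.27, adjusted p = 0.304). Without the CD115- CDP libraries numbered 3, the difference of CD115- CDPs from MPPs was 1.19 (adjusted p = 7.37e-05). The difference between CLPs and CD115- CDPs was then 0.00 (adjusted p = 0.991).

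Itga6, a laminin receptor chain carried by early progenitors, had the opposite order. Its 3 WT MPP libraries were at 9.54, 10.5 and 8.84 FPKM, those of CD115- CDPs at 3.54, 3.75 and 7.08 and those of CLPs at 4.41, 2.57 and 2.44. MPPs were the highest without overlap. The log2 difference from MPPs was -1.39 ± 0.24 in CLPs (adjusted p = 0.000593) and -0.92 ± 0.24 in CD115- CDPs (adjusted p = 0.0135). The difference in CD115- CDPs was past the fold of a call without both libraries numbered 3 (-1.19, adjusted p = 0.000209). It did not pass with the replicate number as a block (adjusted p = 0.0559), or without WT MPP replicate 2 (0.0530), WT CD115- CDP replicate 1 (0.0702) or replicate 2 (0.0602).

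Itgam, the Mac-1 alpha chain, was 23.2, 23.8 and 21.2 FPKM in WT MPPs, 11.6, 8.64 and 25.3 in CD115- CDPs and 11.7, 10.7 and 6.20 in CLPs. CLPs lay below MPPs without overlap (-1.21 ± 0.34, adjusted p = 0.0155, and 0.0776 without WT CLP replicate 3). In CD115- CDPs replicate 3 was far above the other libraries. Itgam there did not pass as lower than in MPPs (-0.69 ± 0.34, adjusted p = 0.159) but did so without that replicate (-1.11, adjusted p = 0.0125). Itgal, the LFA-1 alpha chain, was between 37.7 and 43.7 FPKM in WT MPPs and between 55.6 and 68.4 in CLPs, with a difference of 0.60 ± 0.20 (adjusted p = 0.0363). Leaving out any of WT MPP replicates 1, 2 and 3 or WT CLP replicates 1 and 2 raised the adjusted p to between 0.0633 and 0.122. Its difference between CD115- CDPs and MPPs was 0.48 ± 0.20 (adjusted p = 0.0967, and 0.0222 without WT CD115- CDP replicate 2). Without both CD115- CDP libraries numbered 3 it was 0.21 (adjusted p = 0.228).

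Itga4, Itgb1 and Itgb2 passed in none of the 3 WT contrasts. Itga4 was 22.0 to 27.1 FPKM in MPPs, 31.3 to 40.4 in CD115- CDPs and 29.4 to 51.3 in CLPs, and its differences from MPPs were 0.43 ± 0.26 (adjusted p = 0.248) and 0.50 ± 0.26 (adjusted p = 0.178). Itgb1 was 41.7 to 43.7, 30.2 to 48.1 and 37.2 to 44.2 FPKM in the same order, and Itgb2 was 27.7 to 30.1, 19.6 to 60.4 and 27.9 to 43.2. The ranges of both genes overlapped between every pair of populations. Itgae, the CD103 chain, was 0.05 to 0.18 FPKM in the 9 WT libraries. At the estimated depth 1 read was worth about 0.0130 FPKM of Itgae, so these values stand for small numbers of reads. The gene was below the filter and not tested in any comparison.

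Counted over the 8 members tested, 2 passed as higher and 1 as lower in WT CD115- CDPs than in MPPs, where 5.36% and 15.4% of all 12421 genes did. The 2 higher ones, Itgax and Itgb7, were called, where 1.76% of all genes were. In CLPs against MPPs 3 members passed as higher and 2 as lower, where 10.5% and 14.7% of all genes did. Of these Itgax and Itgb7 were called as higher and Itgam and Itga6 as lower, where 3.86% and 4.84% of all genes were. In CLPs against CD115- CDPs Itgax alone passed, as higher, where 7.53% of all genes did, and it was called, where 2.2% of all genes were. The median log2 difference of the 8 members was 0.29, 0.39 and 0.09 in these contrasts, against -0.10, -0.05 and 0.08 over all genes tested. Without the CD115- CDP libraries numbered 3, Itgb1 also passed as lower in CD115- CDPs than in MPPs (-0.45, adjusted p = 0.00456, and 0.0366 without WT replicate 3 alone), but 30.6% of all 12419 genes then did. Without both, Itgb2 (0.57, adjusted p = 0.0401), Itgb1 (0.39, adjusted p = 0.0159) and Itgal (0.39, adjusted p = 0.0477) passed as higher in CLPs than in CD115- CDPs, where 21.4% of all genes did.

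**Figure D1:**
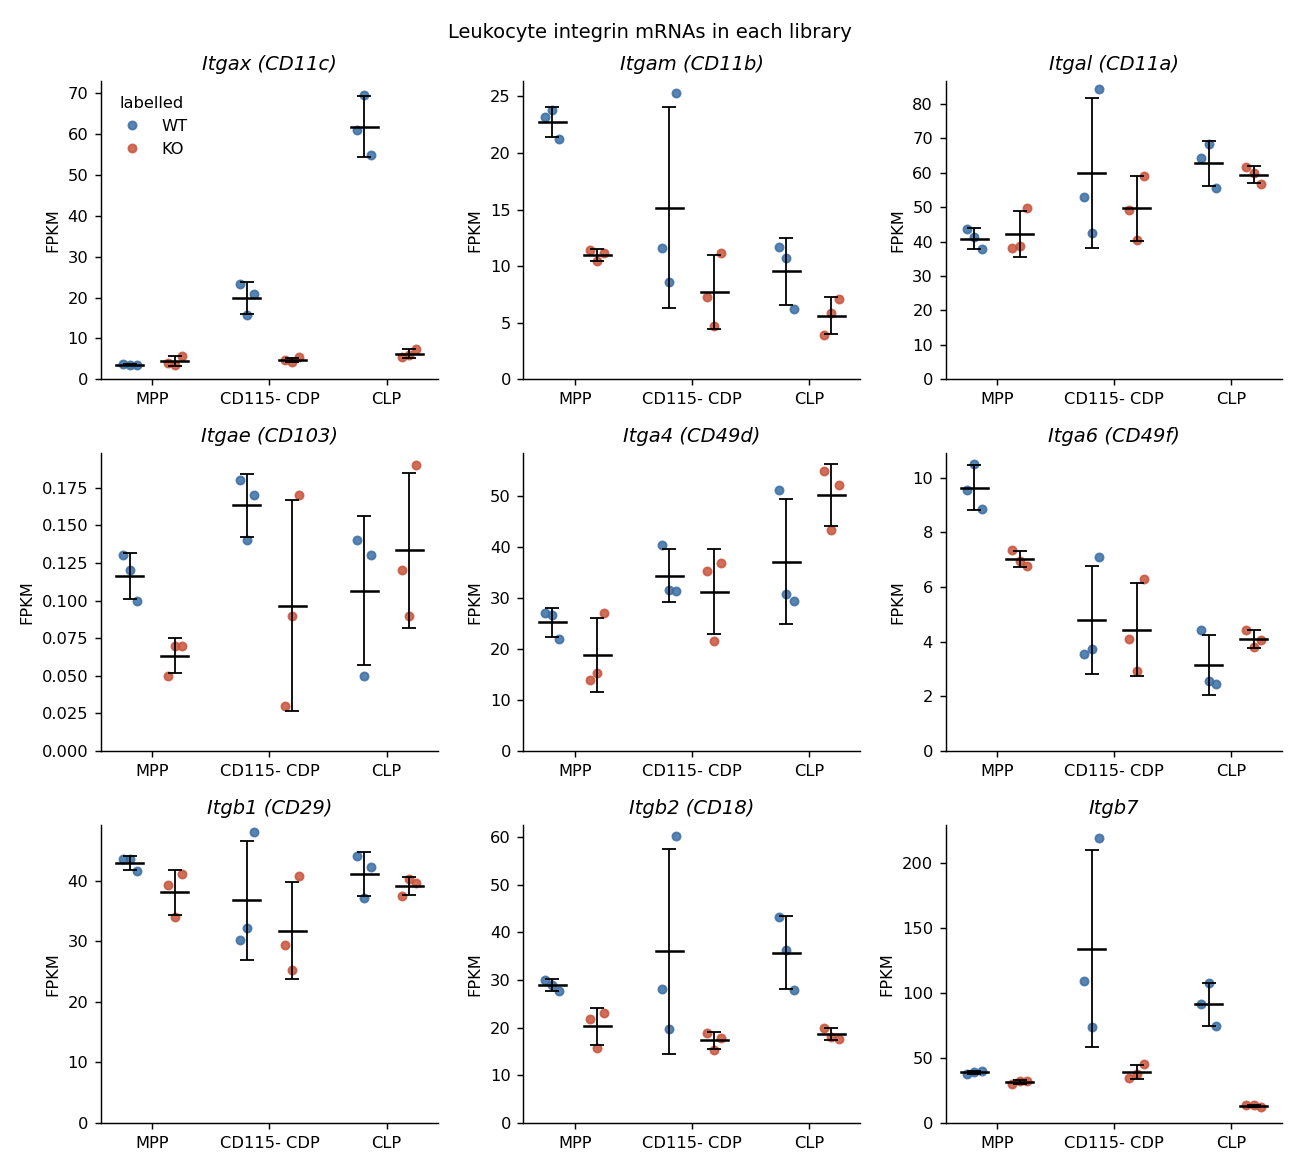
Level in FPKM of each of the 9 integrin genes in each of the 18 libraries, by population, on linear axes that start at 0. Points are libraries, blue for WT and red for KO-labelled, and the black line and bar give the mean and SD of 3 libraries. Itgax and Itgb7 are high in WT CD115- CDPs and WT CLPs and low in the KO-labelled libraries of both, whereas Itgal and Itgb1 overlap between genotypes in CD115- CDPs and CLPs.

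Between genotypes, Itgax and Itgb7 differed most in CD115- CDPs and CLPs, whereas in MPPs Itgam, Itgb2, Itga4 and Itga6 had larger differences than either. In KO-labelled CLPs 3 of the 8 members tested passed as lower, Itgax, Itgb7 and Itgb2, and none as higher, where 8.92% and 5.41% of all 12339 genes did. Itgax and Itgb7 also met the fold minimum and were called, where 2.84% of all genes were called as lower. In CD115- CDPs Itgax alone passed, as lower, and was called, where 0.0654% of all 12229 genes passed and the same share was called. With the replicate number as a block, Itgax, Itgb7 and Itgam passed as lower in CD115- CDPs, where 5.56% of all genes did. The first 2 were called, where 1.46% of all genes were. The study gives no pairing of its libraries, so the block rests on correlations between libraries alone. In MPPs Itgam alone passed, as lower, where 3.52% of all 12372 genes did, and no member was called, where 1.32% of all genes were called as lower. At an unadjusted p under 0.05 there were 4 tested members in CLPs, 4 in MPPs and 2 in CD115- CDPs, where 29.6, 24.2 and 10.5% of all genes were. With the block there were 6 in CLPs and 4 in CD115- CDPs, where 35.2 and 30.6% of all genes were. The median log2 fold change of the tested members was -0.35, -0.53 and -0.37 in the 3 populations, against -0.11, -0.07 and 0.01 over all genes tested.

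**Figure D2:**
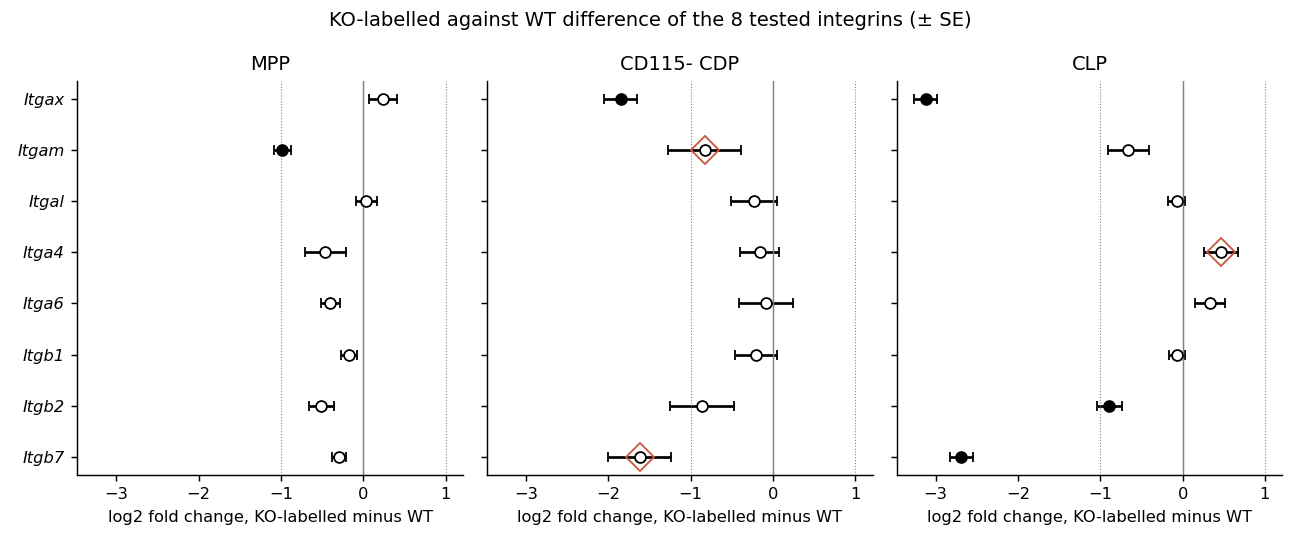
Log2 fold change of KO-labelled against WT libraries on the log2(FPKM + 1) scale, with its SE, for the 8 members tested in each population. Filled points passed at an adjusted p of at most 0.05, red diamonds mark members that passed only with the replicate number as a block in CD115- CDPs or CLPs, and dotted lines stand at -1 and 1. Itgax moves from 0.24 in the left panel to -1.85 in the middle and -3.12 in the right panel.

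Itgax showed the largest difference of any member in CLPs and in CD115- CDPs. In CLPs the KO-labelled libraries had 5.36, 5.92 and 7.47 FPKM against 61.0, 69.7 and 54.8 in WT, and the highest KO-labelled library was far below the lowest WT library. The means were 6.25 ± 1.09 and 61.8 ± 7.46 FPKM (SD, n = 3), a 9.89-fold ratio, and Itgax fell by 3.12 ± 0.14 on the log2 scale (SE; adjusted p = 5.12e-06). In CD115- CDPs the KO-labelled libraries had 4.67, 4.27 and 5.37 FPKM against 23.3, 15.7 and 20.9 in WT, again without overlap. The ratio of means was 4.19-fold and the log2 fold change was -1.85 ± 0.20 (adjusted p = 0.0499, and 0.00262 with the block).

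That call sat at the threshold. Leaving out any 1 of the 6 CD115- CDP libraries raised its adjusted p to between 0.103 (WT replicate 2) and 0.353 (WT replicate 1), with 0.116 without WT replicate 3 and 0.311, 0.297 and 0.108 without KO-labelled replicates 1, 2 and 3, while the log2 fold change stayed between -2.003 and -1.73. With both libraries numbered 3 left out the adjusted p was 0.00310 (-1.88). In MPPs Itgax was 3.95, 3.62 and 5.77 FPKM in the KO-labelled libraries against 3.46 to 3.74 in WT, the ranges overlapped, and the difference was 0.24 ± 0.17 (adjusted p = 0.394). The 9 KO-labelled libraries thus lay between 3.62 and 7.47 FPKM in all 3 populations, and the ranges of each pair of populations overlapped.

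Itgam, beside Itgax on chromosome 7, had another pattern. In MPPs it was 11.4, 10.4 and 11.1 FPKM in the KO-labelled libraries against 23.2, 23.8 and 21.2 in WT, and every KO-labelled library was near the same level, well below WT. It fell by 0.98 ± 0.10 on the log2(FPKM + 1) scale (adjusted p = 0.00677), just short of the log2 fold change of 1 required for a call, while the ratio of mean FPKM was 2.07-fold. The adjusted p was 0.0820, 0.0805 and 0.0520 without WT MPP replicates 1, 2 and 3. In CD115- CDPs each KO-labelled library, at 7.23, 4.68 and 11.1 FPKM, was below the WT library of its number, at 11.6, 8.64 and 25.3. The groups overlapped, and the difference of -0.83 ± 0.44 passed only with the block (adjusted p = 0.566 without and 0.0248 with it). Without the block and without both libraries numbered 3 it was -0.69 (adjusted p = 0.148).

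In CLPs Itgam was 3.92, 5.84 and 7.11 FPKM against 11.7, 10.7 and 6.20, with overlap (-0.66 ± 0.25, adjusted p = 0.122, and 0.0402 without WT CLP replicate 3). Itgal stayed close to 0 in every population, with differences of 0.04 ± 0.13, -0.23 ± 0.28 and -0.07 ± 0.11 (adjusted p = 0.862, 0.841 and 0.698). Its KO-labelled libraries ranged from 38.1 to 49.8 FPKM in MPPs, 40.5 to 59.2 in CD115- CDPs and 56.8 to 61.8 in CLPs, all overlapping with WT.

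Itgb2, the beta chain that these 3 alpha chains share, was lower without overlap in each population. In CLPs it was 20.04, 18.02 and 17.7 FPKM in the KO-labelled libraries against 43.2, 36.3 and 27.9 in WT, and it fell by 0.89 ± 0.15 on the log2 scale (adjusted p = 0.00671). In MPPs it was 21.8, 15.8 and 23.2 against 30.1, 29.0 and 27.7 (-0.51 ± 0.15, adjusted p = 0.120). The CD115- CDP libraries had 18.8, 15.4 and 17.9 FPKM against 28.0, 19.6 and 60.4 (-0.86 ± 0.39, adjusted p = 0.508, and 0.0829 with the block), where WT replicate 3 was far above the other 2. Without both libraries numbered 3 the last difference was -0.44 (adjusted p = 0.237).

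Itgb7 showed the second largest difference in these 2 populations, CLPs and CD115- CDPs. In CLPs the KO-labelled libraries had 13.6, 13.6 and 12.2 FPKM against 91.6, 108 and 74.1 in WT, with no overlap and little spread among the KO-labelled libraries. The means were 13.1 ± 0.803 and 91.1 ± 16.7 FPKM (SD, n = 3), a 6.93-fold ratio, and Itgb7 fell by 2.69 ± 0.14 on the log2 scale (SE; adjusted p = 8.96e-06). In CD115- CDPs the values were 34.2, 37.7 and 45.0 FPKM against 109, 73.9 and 219, also without overlap. The log2 fold change was -1.62 ± 0.38 (adjusted p = 0.284), which passed with the block (adjusted p = 0.0189) and, without the block, when both libraries numbered 3 were left out (-1.30, adjusted p = 0.0103), where 1.78% of all 12087 genes passed as lower. In MPPs the KO-labelled libraries, at 30.02, 32.3 and 32.5 FPKM, were all below the WT libraries, at 37.8, 38.9 and 40.0, and the difference of -0.29 ± 0.09 did not pass (adjusted p = 0.114).

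The alpha chains that pair with the Itgb7 product did not show such a difference. Itga4 in CLPs was 55.0, 43.4 and 52.3 FPKM in the KO-labelled libraries against 51.3, 30.9 and 29.4 in WT. Each was above the WT library of its number, but the groups overlapped. The difference of 0.46 ± 0.20 did not pass (adjusted p = 0.172), did pass with the block (0.0475, where 8.44% of all genes passed as higher) and passed without WT CLP replicate 1 (0.71, adjusted p = 0.00791, where 9.8% of all genes passed as higher). In MPPs Itga4 was 13.9, 15.4 and 27.1 FPKM against 27.1, 26.7 and 22.0, with KO-labelled replicate 3 apart from the other 2 (-0.46 ± 0.25, adjusted p = 0.285). In CD115- CDPs the difference was -0.16 ± 0.24 (adjusted p = 0.875). Itgae was 0.03 to 0.19 FPKM in the KO-labelled libraries, and in MPPs its KO-labelled libraries, at 0.05, 0.07 and 0.07 FPKM, were below those of WT, at 0.13, 0.12 and 0.10.

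Itgb1, the other partner of Itga4, overlapped between genotypes in CD115- CDPs and CLPs and differed by -0.17 ± 0.10, -0.20 ± 0.25 and -0.07 ± 0.10 in the 3 populations (adjusted p = 0.309, 0.846 and 0.697). In MPPs its KO-labelled libraries, at 39.4, 34.0 and 41.1 FPKM, were below the WT libraries at 43.7, 43.7 and 41.7. Itga6 was 7.35, 6.95 and 6.78 FPKM in KO-labelled MPPs against 9.54, 10.5 and 8.84 in WT, without overlap (-0.40 ± 0.12, adjusted p = 0.114). Its differences were -0.08 ± 0.33 in CD115- CDPs (adjusted p = 0.964) and 0.33 ± 0.18 in CLPs (adjusted p = 0.277), the latter passing only without WT CLP replicate 1 (0.54, adjusted p = 0.0189).

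In MPPs, 5 of the 8 tested members had all KO-labelled libraries below all WT libraries, where 23.3% of all tested genes did, and in CD115- CDPs and CLPs it was 3 of 8, where 10.6% and 18.6% did. Among the KO-labelled MPP libraries replicate 3 differed from the other 2 in several members. Without it, Itga4 (-0.74, adjusted p = 0.00291), Itgb2 (-0.61, adjusted p = 0.0102), Itga6 (-0.38, adjusted p = 0.0170) and Itgb7 (-0.31, adjusted p = 0.0101) also passed as lower in MPPs, but so did 38.8% of all 12375 genes, against 3.52% with the 6 libraries.

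Whether the genotype difference itself depended on the population was tested in 1 fit of the 18 libraries. Among 12421 genes 2.45% passed this interaction test. Of the 8 members 2 did, Itgax (adjusted p = 2.66e-06) and Itgb7 (adjusted p = 0.00619). The log2 fold change of Itgax in CLPs minus that in MPPs was -3.36 ± 0.24 (SE), that in CD115- CDPs minus that in MPPs was -2.08 ± 0.24, and that in CLPs minus that in CD115- CDPs was -1.27 ± 0.24. For Itgb7 the same differences were -2.40 ± 0.38, -1.33 ± 0.38 and -1.07 ± 0.38. The other 6 members did not pass, with adjusted p from 0.353 for Itga4 to 0.918 for Itgb1. For Itgb2 the differences of the log2 fold change from that in MPPs were -0.35 ± 0.40 and -0.38 ± 0.40, and for Itgam they were 0.16 ± 0.48 and 0.33 ± 0.48, so these data did not resolve a difference between populations for them.

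Because FPKM is scaled by transcript length, the levels of subunits within a library can be set side by side. Of the summed FPKM of the 4 alpha chains that pair with CD18 (Itgal, Itgam, Itgax and Itgad), Itgax made up 43.1, 45.8 and 45.3% in WT CLPs and 7.44, 8.13 and 10.3% in KO-labelled CLPs. In CD115- CDPs it was 26.0, 22.9 and 15.9% against 7.48, 8.45 and 7.06%, and in MPPs 5.28, 5.02 and 5.55% against 7.35, 6.81 and 8.57%. The KO-labelled share was thus below WT in the first 2 populations and above it in MPPs, without overlap in any. Itgal, whose own level overlapped between genotypes there, made up 45.5% ± 0.504 (SD, n = 3) of the sum in WT CLPs and 82.0% ± 3.77 in KO-labelled CLPs. Shares of 1 sum depend on each other, so a share can rise without a rise of its gene. In MPPs Itgam made up 33.7% ± 0.935 in WT and 19.1% ± 2.36 in KO-labelled libraries.

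The sum of the 4 alpha chains in CLPs was 138 ± 15.8 FPKM in WT and 72.5 ± 0.424 in KO-labelled libraries (SD, n = 3), and it stood at 3.94 ± 0.576 and 3.91 ± 0.278 times the FPKM of Itgb2, their shared beta chain. In MPPs this ratio was 2.33 ± 0.0582 in WT and 2.91 ± 0.448 in KO-labelled libraries. Of the beta chains that pair with the Itga4 product, Itgb7 made up 67.4, 74.3 and 63.7% of Itgb1 plus Itgb7 in WT CLPs and 26.6, 25.2 and 23.6% in KO-labelled CLPs. In CD115- CDPs it made up 78.4, 69.7 and 82.0% against 53.8, 59.9 and 52.5%, and in MPPs 46.4, 47.1 and 49.0% against 43.3, 48.7 and 44.2%. The last 2 groups overlapped. For each share without overlap the two-sided exact permutation test gave p = 0.1, the smallest that 3 libraries against 3 allow.

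**Figure D3:**
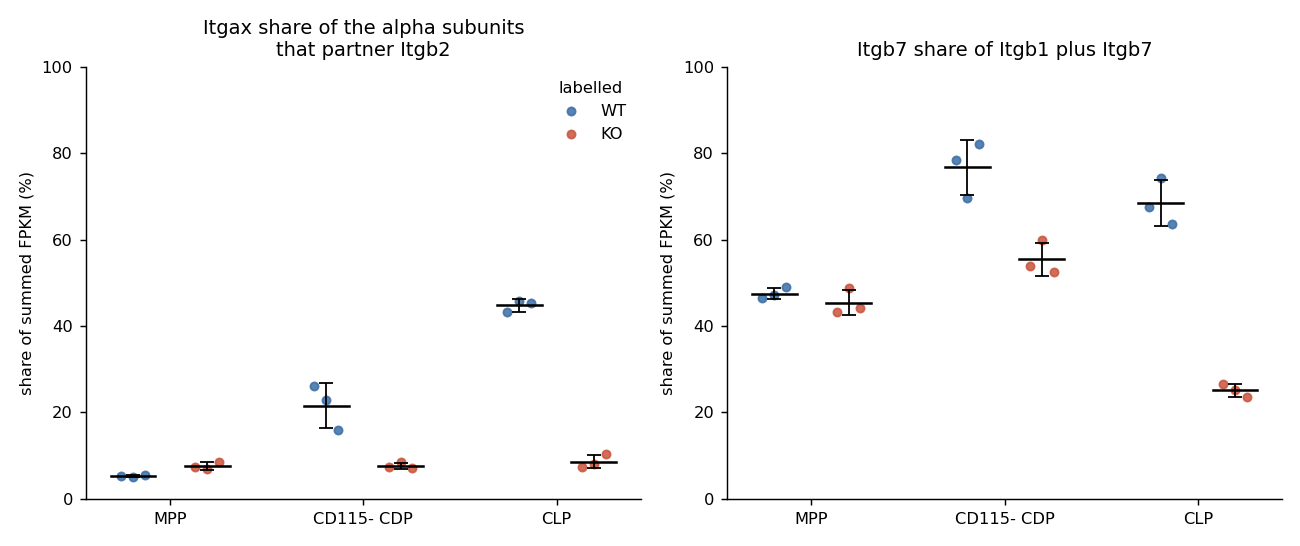
Left, Itgax as a percent of the summed FPKM of Itgal, Itgam, Itgax and Itgad; right, Itgb7 as a percent of Itgb1 plus Itgb7; both by population, on axes that span the full range of a percentage. Points are libraries and the black line and bar give the mean and SD of 3. The Itgax share averages 44.8% in WT CLPs and 8.62% in KO-labelled CLPs, and the Itgb7 share 68.5% and 25.1%.

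Markers of other cell types moved with several of these results. Of all genes tested in CLPs, 8.92% passed as lower and 5.41% as higher. In CLPs the summed FPKM of 9 DC genes, a list without Itgax, was 268 to 328 in WT and 107 to 166 in KO-labelled libraries, 4 of its 6 tested genes passed as lower and 1 as higher, and Siglech, a receptor of plasmacytoid DCs, was 216, 145 and 146 FPKM against 9.11, 7.67 and 9.24. The 8 monocyte and macrophage genes summed to 66.3 to 89.5 FPKM in WT CLPs and 16.3 to 24.3 in KO-labelled CLPs, with 3 of 5 tested genes passing as lower. The 7 T and NK cell genes summed to 18.2 to 24.1 and 5.96 to 6.95 FPKM, with 2 of 3 tested genes passing as lower. Most of that sum was Thy1 (14.9, 19.0 and 20.2 FPKM in WT and 5.69, 5.07 and 4.12 in KO-labelled libraries), the other gene that passed was Klrk1, and the T cell marker Cd3e was only 0.18 to 0.22 FPKM in WT CLPs and listed at 0 in the 3 KO-labelled libraries. The 8 erythroid genes summed to 33.9 to 56.5 and 5.67 to 9.92 FPKM, with 4 of 5 tested genes lower. In CLPs the sums of the neutrophil, B cell, megakaryocyte, mast cell and basophil lists and of 5 antigens of the lineage depletion overlapped between genotypes. The part of these cell types in the Itgax, Itgb7 and Itgb2 results was not tested.

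In CD115- CDPs, where the DC list overlapped (265 to 410 in WT and 82.3 to 346 in KO-labelled libraries), Siglech was 80.3, 56.8 and 30.4 FPKM against 6.63, 10.4 and 3.05. Each of the 3 KO-labelled libraries listed Cd209a at 0, against 1.09, 0.60 and 22.7 FPKM in WT. H2-Ab1 (67.9 to 89.3 FPKM) and Zbtb46 (2.73 to 4.19 FPKM) alone of this list had higher means in the KO-labelled libraries. The T and NK cell sum there was 9.87 to 33.9 FPKM in WT and 4.83 to 7.49 in KO-labelled libraries, without overlap. The sums of the other marker lists overlapped between genotypes in CD115- CDPs. No gene of any marker list passed in CD115- CDPs without the block. The WT library with the highest monocyte sum, replicate 3, also had the highest Itgb7, Itgb2, Itgam, Itgal, Itgb1 and Itga6, but not the highest Itgax or Itga4. In MPPs, beside the lower Itgam, the neutrophil list summed to 3447 to 3579 FPKM in WT and 1529 to 2517 in KO-labelled libraries, and the monocyte and macrophage list to 67.3 to 73.4 and 24.8 to 38.6. In these lists 4 of 10 and 5 of 7 tested genes passed as lower, where 3.52% of all genes tested in MPPs did. The erythroid (366 to 391 against 33.0 to 59.0), megakaryocyte (41.5 to 43.0 against 11.7 to 14.1), mast cell and basophil (227 to 257 against 85.7 to 141), B cell (49.1 to 55.4 against 15.9 to 30.8) and lineage antigen sums (12.9 to 14.0 against 3.24 to 4.75) were also lower without overlap, with 7 of 8, 1 of 3, 4 of 6, 1 of 7 and 1 of 3 tested genes passing. The DC and the T and NK cell lists overlapped in MPPs. The part of these cell types in the integrin results was not tested. Of 7 markers of the gates, Flt3 was 147 to 330 FPKM in all 18 libraries, and Il7r, which encodes CD127, was 32.6 to 63.0 FPKM in the 6 CLP libraries and 1.89 to 20.6 in the other 12. Csf1r, which encodes the CD115 that was gated out of CD115- CDPs, was at 39.1 to 137 FPKM in their WT libraries and 9.24 to 37.2 in their KO-labelled libraries. In MPPs 3 of the 7 passed as lower, Kit (71.6 to 74.8 FPKM in WT and 29.9 to 49.9 in KO-labelled libraries), Ly6a, which encodes Sca-1 (59.3 to 76.4 against 33.9 to 43.1), and Csf1r (13.2 to 15.6 against 3.94 to 4.54). In CLPs Csf1r passed as lower (14.5 to 26.3 against 5.05 to 7.37), and Kit (11.5 to 13.8 against 18.6 to 22.4) and Cd34 (135 to 156 against 212 to 228) passed as higher. The part of these shifts in the integrin results was not tested.

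**Figure D4:**
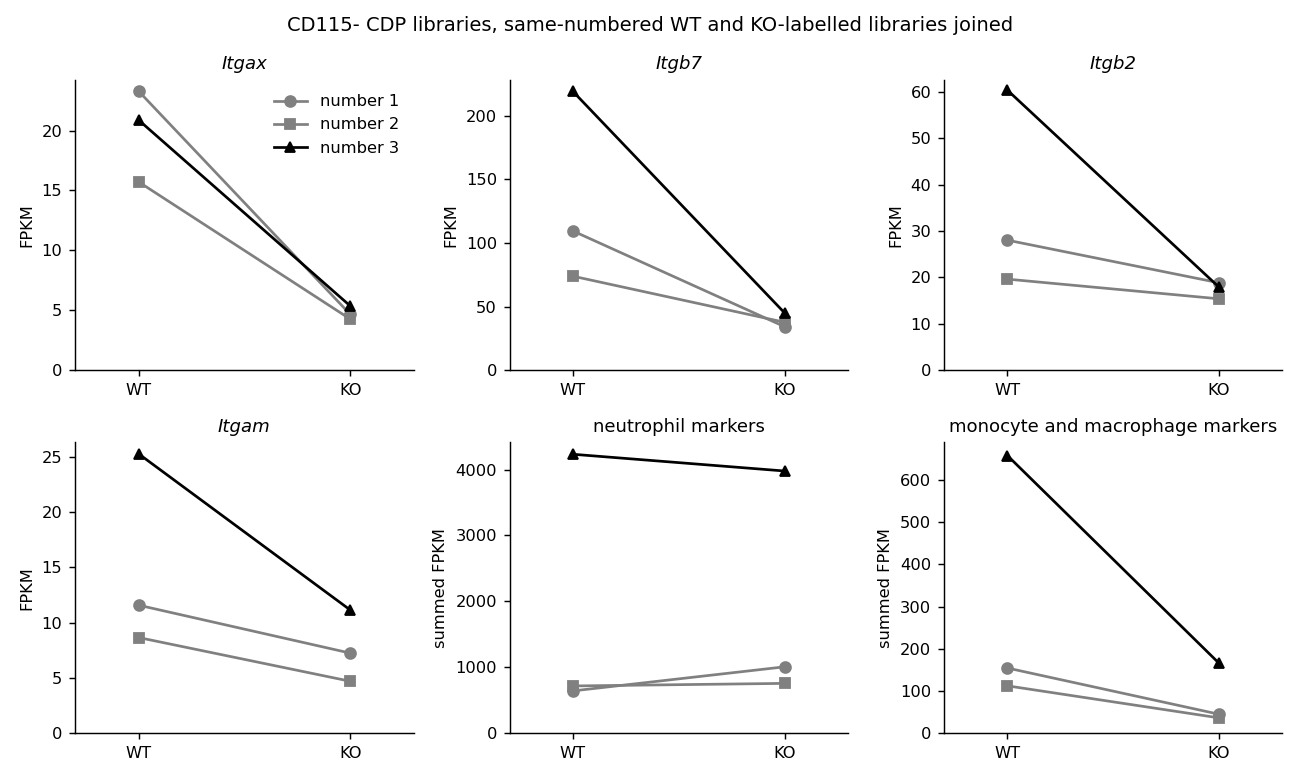
CD115- CDP libraries, with the WT and the KO-labelled library of the same number joined by a line, for 4 members (FPKM) and for the summed FPKM of the neutrophil and the monocyte and macrophage lists; all axes start at 0. The black triangles are the libraries numbered 3. Every line of the 4 members goes down, and WT replicate 3 is the highest library for Itgb7 (219 FPKM), Itgb2 (60.4 FPKM) and Itgam (25.3 FPKM).

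The remaining genes of integrin biology were taken from 6 lists. Of all genes tested, 3.52% passed as lower and 0.315% as higher in MPPs, and 8.92% and 5.41% in CLPs. Among 17 other integrin subunits 9 were tested in each population. In MPPs 2 passed as lower, Itga2b (-1.13 ± 0.17, adjusted p = 0.0232), the platelet fibrinogen receptor chain, and Itgb5 (-1.12 ± 0.16, adjusted p = 0.0211), a vitronectin receptor chain, and none as higher, with a list median of 0.06. In CLPs 3 passed as lower, Itgb3 (-1.58 ± 0.16, adjusted p = 0.000387), the partner of Itga2b and Itgav, Itgad (-1.19 ± 0.14, adjusted p = 0.000860) and Itgb4 (-0.49 ± 0.12, adjusted p = 0.0263), with a list median of -0.06. Itgad, the neighbour of Itgax, was 4.02 ± 0.621 FPKM in WT and 1.19 ± 0.159 in KO-labelled CLPs (SD, n = 3).

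Of 11 integrin ligands, 9 were tested in MPPs and 7 in CLPs. Fn1, which encodes fibronectin, fell from 8.48 ± 2.16 to 0.207 ± 0.0306 FPKM in MPPs (-2.95 ± 0.19 on the log2 scale, adjusted p = 0.00182), and Icam4 (-0.97 ± 0.11, adjusted p = 0.00998) and Cdh1 (-0.69 ± 0.12, adjusted p = 0.0380) also passed as lower there. Cdh1, which encodes E-cadherin, the ligand of the CD103 integrin, fell in CLPs from 6.77 ± 1.56 to 0.353 ± 0.0551 FPKM (-2.50 ± 0.16, adjusted p = 2.64e-05), and Fn1 was lower there too (-0.92 ± 0.11, adjusted p = 0.00112). F11r, which encodes the LFA-1 ligand JAM-A, was the only one of the 7 that passed as higher in CLPs without the block (0.80 ± 0.17, adjusted p = 0.0140). The list medians were 0.33 in MPPs and -0.51 in CLPs.

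The activators that switch integrins on from inside the cell were tested in full, 13 of 13. None passed in MPPs (list median -0.14), and in CLPs 2 passed as lower, Fyb (-1.38 ± 0.19, adjusted p = 0.00218) and Skap2 (-0.47 ± 0.09, adjusted p = 0.00872), adaptors of the same complex, with a list median of -0.17. Of 12 adhesion adaptors and kinases 11 were tested in MPPs and CLPs. Tyrobp and Fcer1g, which encode the signalling adaptors DAP12 and the Fc receptor gamma chain that leukocyte integrins use, passed as lower in both. Tyrobp fell from 402 ± 41.9 to 53.9 ± 12.9 FPKM in CLPs (-2.90 ± 0.18, adjusted p = 2.37e-05) and Fcer1g from 134 ± 23.3 to 33.6 ± 4.07 FPKM (-1.95 ± 0.14, adjusted p = 6.09e-05).

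In MPPs their log2 fold changes were -0.86 ± 0.13 (adjusted p = 0.0214) and -0.71 ± 0.11 (adjusted p = 0.0273). In CLPs Ptk2 (-0.58, adjusted p = 0.0368) and Ilk (-0.41, adjusted p = 0.0279), which encode proteins of focal adhesions, were also lower, and Lims1, an Ilk partner, was higher (0.67, adjusted p = 0.0195). The median of this list was -0.13 in MPPs and -0.12 in CLPs. Of 6 integrin inhibitors Rasa3 alone passed, as lower in CLPs (-0.35, adjusted p = 0.0468), and of 4 genes of the chaperone list Cnpy3 alone, also as lower in CLPs (-0.63, adjusted p = 0.00537). Rasa3 restrains the small GTPase that activates integrins, and the Cnpy3 product assists the chaperone that folds integrins but is known mainly for its part in folding Toll-like receptors. The medians of these 2 lists were -0.21 and -0.06 in MPPs and -0.09 and -0.22 in CLPs.

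In CD115- CDPs none of the 53 genes of these lists that were tested passed without the block; at an unadjusted p under 0.05 there were 9, where 10.5% of all genes were. The list medians were -0.16 for other subunits, -0.20 for ligands, -0.32 for activators, -0.29 for adaptors and kinases, -0.19 for inhibitors and -0.04 for chaperones, against -0.07 over all genes tested. With the block 6 passed as lower, Tyrobp (-1.69, adjusted p = 0.00203), Fcer1g (-1.02, adjusted p = 0.0283), Fyb (-0.84, adjusted p = 0.0188), Flna (-0.56, adjusted p = 0.0340), Rasa3 (-0.52, adjusted p = 0.0283) and Dock2 (-0.49, adjusted p = 0.0364), where 5.56% of all genes did. F11r alone passed as higher (1.63, adjusted p = 0.0109), where 3.78% of all genes did. In CLPs the block added Itga5 (0.40, adjusted p = 0.0393) and Icam2 (0.32, adjusted p = 0.0453) as higher, where 8.44% of all genes passed as higher. In MPPs Cdh1 no longer passed with the block, although the MPP libraries of the same number are not treated as pairs.

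**Figure D5:**
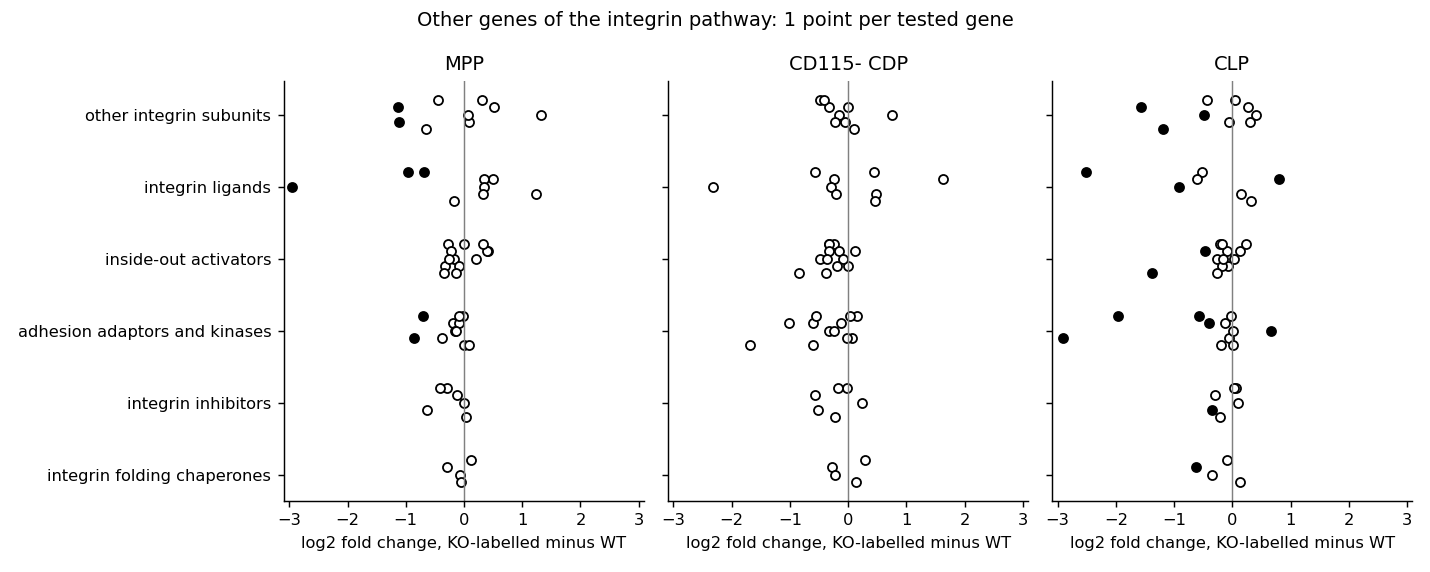
Log2 fold change of KO-labelled against WT libraries for each tested gene of 6 lists of integrin genes, 1 point per gene, spread vertically only for legibility. Filled points passed without the block at an adjusted p of at most 0.05. The leftmost points are Fn1 in MPPs (-2.95) and Tyrobp in CLPs (-2.90), and no point is filled in CD115- CDPs.

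Over the 18 libraries the mean-centred log2(FPKM + 1) of Itgax had an SD of 1.41 and that of Itgb7 1.09, while the other 6 tested members had SDs between 0.24 and 0.72. The genes whose pattern lay nearest to that of Itgax, by the root mean square difference of the mean-centred values over 18 libraries, were Xkrx (0.35), Prss30 (0.35) and Atp1b1 (0.36). Atp1b1, a sodium pump subunit, averaged 88.1 ± 8.11 FPKM in WT and 9.85 ± 0.619 in KO-labelled CLPs (SD, n = 3), and 5.21 ± 0.191 and 6.29 ± 0.420 in MPPs. Those nearest to Itgb7 were Cfp (0.33), which encodes properdin, Tyrobp (0.41) and Fcer1g (0.43). Cfp averaged 36.4 ± 7.27 FPKM in WT and 5.76 ± 0.632 in KO-labelled CLPs, and 78.7 ± 56.2 and 22.7 ± 15.0 in CD115- CDPs. The distance between Itgax and Itgb7 themselves was 1.01, and that between Itgb7 and Itgb2 was 0.76. The libraries share their groups, so these distances are a description.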

How the data were processed

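The 18 libraries were grouped by population and genotype from their labels. The authors sequenced poly-A mRNA as single-end 50-base reads on the BGISEQ-500, filtered them with SOAPnuke 1.5.2, and used Bowtie2 2.2.5 with RSEM 1.2.12 and HISAT2 2.0.4 on mm10; their deposited tables give each gene's FPKM to 2 decimals. Read counts were not used here, so whole reads and counting intervals are not given. Depth was estimated from the steps between low FPKM of single-transcript genes. Differences were fitted with limma 3.58.1 (R 4.3.3, trended variance) on log2(FPKM + 1), a scale that understates changes of low genes, per population over its 6 libraries, and over all 18 for population contrasts and the interaction; the filter was a mean of 0.5 FPKM. The fit was tested on simulated data.

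The replicate number was used as a block where same-numbered WT and KO libraries deviated together in each pair (correlations above 0.1): in CD115- CDPs (0.437 to 0.790) and CLPs (0.131 to 0.400), but not MPPs (0.0382 to 0.482). Pairs of different numbers ranged from -0.784 to 0.663 in CD115- CDPs and from -0.399 to 0.234 in CLPs, and the study gives no pairing. In WT it held between MPPs and CD115- CDPs (0.155 to 0.380). Where a gene is named, it is a member, Trim33, up to 3 called genes per list, population and direction, a gene of a list whose count is 5 or fewer, one of the 3 genes nearest to a member that varies with an SD of at least 1, or a marker. The members and lists were chosen with earlier results of these data known. Genes that passed with the block in CD115- CDPs, Siglech, Cd209a, H2-Ab1, Zbtb46, Thy1, Klrk1, Cd3e and the gate markers were named after their values were seen. Alternatives were another pseudocount, filter, scaling and variance model, the block and leaving out libraries; leaving out both CD115- CDP libraries numbered 3 was chosen after seeing the data. Gene positions and promoters are from RefSeq on GRCm38.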

Additional observations from a re-analysis of the deposited data

Results flagged for a closer look

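Itgax and Itgb7 stood out because their genotype difference was not the same in the 3 populations, by the test of that difference itself. The KO minus WT log2 fold change of Itgax in CLPs was -3.36 relative to that in MPPs, in CD115- CDPs it was -2.08 relative to MPPs, and in CLPs it was -1.27 relative to CD115- CDPs (interaction adjusted p = 2.66e-06, limma). The genotypes did not overlap in CD115- CDPs or in CLPs, with KO-labelled libraries the lower ones, and they overlapped in MPPs (3.62 to 5.77 FPKM in KO-labelled and 3.46 to 3.74 in WT libraries). For Itgb7 the same differences were -2.40, -1.33 and -1.07 (adjusted p = 0.00619), and every KO-labelled library was below every WT library in each of the 3 populations. The adjusted p of the interaction stayed between 2.59e-07 and 8.08e-05 for Itgax and between 1.86e-05 and 0.0243 for Itgb7 over 27 alternatives each. The populations come from separate tables, and DC and monocyte markers moved with genotype in CLPs; their part was not tested.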

How the results depend on the processing

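Counted over 27 alternatives, the 2 members passing the interaction test (Itgax and Itgb7) stayed 2, and the 2 called in CLPs (Itgax and Itgb7) were 2 or 3 when 1 library was left out. In MPPs no member was called, but Itgam became 1 call with a pseudocount of 0.1, with TPM or with no minimum fold change, and leaving out 1 library gave 0 to 1. In CD115- CDPs the 1 call became 0 with no filter on expression, 0 without any 1 library, and 2 with the replicate block or without both libraries numbered 3. In WT CD115- CDPs against MPPs the 2 calls became 4 without both libraries numbered 3 (2 to 4 leaving out 1 library). With no minimum fold change the called pathway genes numbered 7 in MPPs and 15 in CLPs, and with the replicate block 3 rather than 0 in CD115- CDPs. In MPPs, whose numbers do not pair the libraries by the rule used, the block changed no member's call. Beyond those given in the report, the block left Itgam (adjusted p = 0.0638) and Itgal (0.109) no longer past the threshold and took Itga4 (0.0474) past it in WT CLPs against MPPs, where the numbers do not pair the libraries, and it changed no other member's call.

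Small differences that had not passed changed sign: Itga6 in CD115- CDPs with quantile normalization (0.081), and in WT, Itgb1 in CLPs against MPPs with TPM (0.063), Itga4 in CLPs against CD115- CDPs with median ratio scaling (-0.019), and, without both libraries numbered 3, Itgb2 in CD115- CDPs against MPPs (-0.29) and Itgb7 in CLPs against CD115- CDPs (0.0027). Leaving out 1 library, the KO minus WT difference ranged from -0.084 to 0.11 for Itgal and from -0.45 to 0.12 for Trim33 in MPPs, and in CD115- CDPs from -0.44 to 0.046 for Itgal, -0.30 to 0.074 for Itga4, -0.32 to 0.18 for Itga6 and -0.39 to 0.0011 for Itgb1. In WT it ranged from -0.29 to 0.50 for Itgb2 in CD115- CDPs against MPPs, from -0.11 to 0.0075 for Itgb1 in CLPs against MPPs, and in CLPs against CD115- CDPs from -0.095 to 0.39 for Itgal, -0.18 to 0.21 for Itga4, -0.22 to 0.57 for Itgb2 and -0.77 to 0.0027 for Itgb7. The cause was not tested.

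The median over all genes moved by more than 0.1 with TPM in CD115- CDPs (-0.07 to -0.19) and with median ratio scaling in MPPs (-0.11 to -0.01). In WT it moved with TPM in CLPs against MPPs (-0.05 to 0.07) and against CD115- CDPs (0.08 to 0.19), and with median ratio scaling in CD115- CDPs against MPPs (-0.10 to 0.01). Among all genes that passed, the split of lower and higher was 436 and 39 in MPPs but 195 and 56 with quantile normalization (43 to 47 and 11 to 13 without any 1 WT MPP library, and 4798 and 1919 without KO-labelled MPP replicate 3), 1830 and 1301 in WT CLPs against MPPs but 1351 and 1733 with TPM, 1913 and 666 in WT CD115- CDPs against MPPs but 1532 and 1156 with quantile normalization (1663 and 1029 with median ratio scaling), and 388 and 935 in WT CLPs against CD115- CDPs but 283 and 1565 with TPM (578 and 855 with median ratio scaling). With 3 libraries a group an exact test of 1 value cannot go below 0.1, and FPKM without counts gives no counting error.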
